A study of Mus musculus with 12 samples.

Results

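The subject here is the difference between wild-type (WT) and EAAE mice in how uterine transcripts answered estradiol (E2). For each gene it is the change from saline to E2 in EAAE uterus minus the same change in WT uterus, called the response difference. All 12 arrays of the series enter it, and it was measured for 19301 genes. EAAE mice carry, per the series title, an estrogen receptor alpha that is deficient in DNA binding, and zygosity is not given in the sources used here. All mice, controls included, were females of strain C57bl6/Jx129, adult at 10 weeks of age or more, whose ovaries had been removed 10 to 14 days earlier. They were injected with 100 ul of saline or 100 ul of E2, at a dose that the labels do not state, and the uterus was taken 2 h later. Each of the 4 groups, WT and EAAE mice given saline or E2, held 3 mice. Each uterus gave 1 single-colour Agilent array, hybridised with Cy3-labelled copies of 500 ng of total RNA.

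Estrogen receptor alpha, the product of Esr1, is a ligand-activated transcription factor. It can bind estrogen response elements in DNA with its zinc fingers, it can reach other genes tethered to factors such as AP-1, and a pool of it outside the nucleus can signal through kinases. In the ovariectomized uterus E2 sets off an early phase, in which growth factor, immediate early and vascular genes respond and the tissue takes up water, before epithelial cells divide. The response difference asks, gene by gene, what remains of the early phase when the receptor's contact with DNA is impaired.

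Levels are given as log2 of the processed spot intensity minus the 75th percentile of the same array, so that a step of 1 is a 2-fold step. A gene is represented by its brightest probe, and levels of different genes cannot be set against each other. Between 63.39 and 73.6% of probes were well above background on each array. Over probes, Pearson's r lay between 0.9825 and 0.9935 for pairs of arrays within a group, and between 0.9184 and 0.9883 for pairs across groups. Saline and E2 groups are said to be apart where no array of one reached into the range of the other, which was so for 64.6% of genes in WT (24.7% with E2 higher and 39.8% with E2 lower) and 18.5% in EAAE (9.96% and 8.52%). Esr1 itself was well above background on all 12 arrays, at 2.84, 3.02 and 3.01 in WT saline, 2.72, 2.65 and 2.76 in WT E2, 3.22, 3.42 and 3.42 in EAAE saline and 3.26, 3.09 and 3.04 in EAAE E2. Its response was -0.25 in WT and -0.22 in EAAE, with a response difference of 0.02 ± 0.13 (SE). Since the title tells of impaired DNA binding, and not of a missing transcript, this level cannot check the genotype labels. In whole uterus, fewer cells of a type and less RNA per cell cannot be told apart.

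E2 changed a large share of the measured transcripts in WT uterus and a small one in EAAE uterus. Tests were limma's, over all 12 arrays, with p-values adjusted by Benjamini-Hochberg over the 19301 genes and a threshold of 0.05. A gene past it is said to have risen, fallen or changed. In WT, 3757 genes rose and 5771 fell, which is 49.4% of genes tested. In EAAE, 133 rose and 138 fell, which is 1.4%. At an unadjusted p under 0.05, 8.24% of genes were higher and 7.84% lower after E2 in EAAE. The EAAE count of 271 was 89, 62 and 116 without EAAE saline 1, 2 and 3, and 111 and 82 when EAAE E2 1 or 2 was dropped. It was 145 when WT E2 1, 154 when WT E2 3 and 159 when WT saline 2 was dropped. The response difference passed the threshold for 7245 genes, 37.5% of those tested, with EAAE the higher response for 4382 genes (22.7%) and the lower for 2863 (14.8%). At 2-fold or more the difference passed for 1671 genes in the higher (8.66%) and 1198 in the lower direction (6.21%), and the responses for 5.67% of genes up and 8.63% down in WT and 0.244% up and 0.15% down in EAAE. The median response difference over all genes was 0.15 and not 0. With arrays scaled to their median intensity, that median was 0.05 and the split was even, 3103 higher and 3130 lower. Small response differences are therefore best read against the median of all genes. The median response over all genes was -0.148 in WT and 0.026 in EAAE. The WT shares of 19.5% rising and 29.9% falling thus hold for this scaling.

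Each gene was placed in a class by its 3 calls. A response was lost where the WT response and the difference passed and the EAAE response did not. It was reversed where the EAAE response passed in the opposite direction, and reduced or larger where it passed in the same direction with a smaller or larger size. It was kept where both genotypes changed in the same direction and the difference did not pass, and undecided where the WT response alone passed. An EAAE-only response passed in EAAE and in the difference but not in WT. By these rules 6480 genes were lost (33.6% of genes tested), 2855 undecided (14.8%), 109 reversed (0.565%), 60 EAAE only (0.311%), 58 kept (0.301%), 21 reduced (0.109%) and 5 larger in EAAE (0.0259%). A further 570 genes (2.95%) differed in response with no call in either genotype, 18 (0.0933%) changed in EAAE with no difference shown, and 9125 (47.3%) passed none of the tests.

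**Figure D1:**
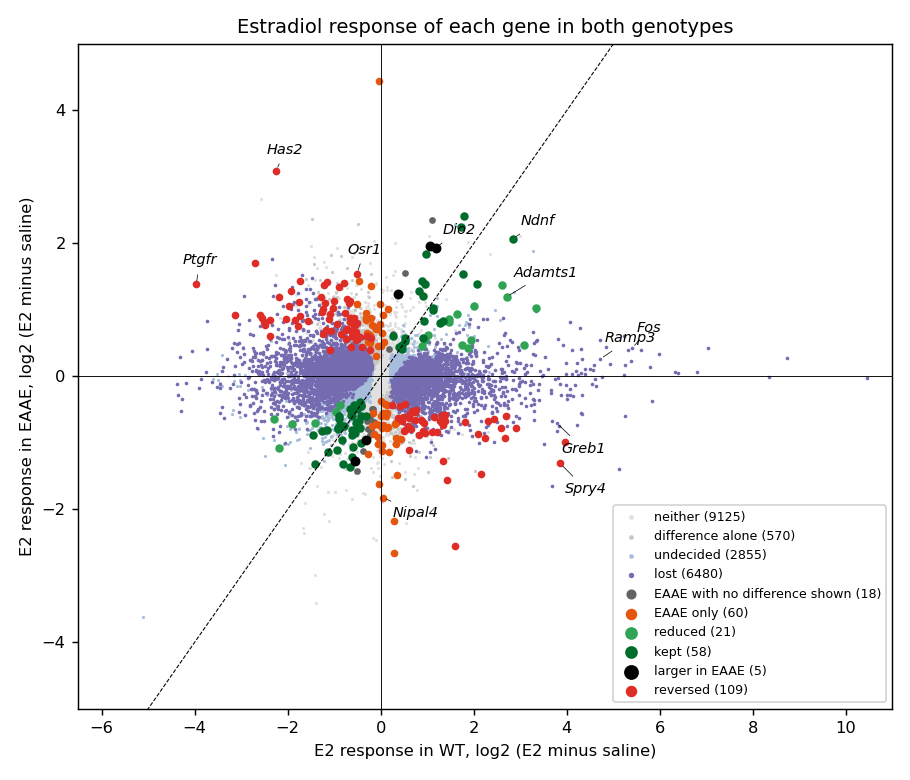
E2 response in WT (x axis) and in EAAE (y axis) of each of the 19301 genes, both as log2 differences of group means of 3 mice, coloured by class. The 6480 lost genes lie along the horizontal axis far to both sides, kept genes lie near the dashed line of equal responses, and reversed genes lie in the upper left, as Has2 and Ptgfr do, and in the lower right.

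The lost class held 2592 WT rises and 3888 WT falls, together 68.0% of the 9528 WT responses. The median rise was 0.84 in WT and -0.04 in EAAE, and the median fall was -0.79 in WT and 0.09 in EAAE. A lost response is not shown to be 0. For 2919 of the 6480 genes the 95% confidence interval of the EAAE response lay within 50% of the size of the WT response, and for the others it did not. Of WT rises below 0.5 on the log2 scale 36.0% were lost, of rises of 0.5 to 1 80.1%, of rises of 1 to 2 and of 2 to 3 89.3% each, and of rises above 3 95.5%. Among WT falls the shares were 52.0% below 0.5, 68.0% for 0.5 to 1, 81.6% for 1 to 2, 86.7% for 2 to 3 and 67.3% above 3. The class needs a called difference, whose SE is larger than that of a response, so these shares depend on size by rule. Of the 1190 rises below 0.5, 751 were undecided and 5 kept, and of the 1680 such falls 791 and 9. The lower shares there do not show that small responses remained in EAAE. Of the 55 falls above 3, 16 were undecided, and adipocyte genes described further on are among them.

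Immediate early genes, which code for transcription factors and feedback enzymes that many stimuli switch on within minutes, had lost most of their response. Of 37 measured members 33 rose in WT, where 19.5% of all genes did, and none fell. In EAAE 0 of the 37 rose and 3 fell by limma, where 0.689% and 0.715% of all genes did. At an unadjusted p under 0.05, 6 were higher and 13 lower in EAAE, where 8.24% and 7.84% of all genes were. The median response was 2.12 in WT and -0.06 in EAAE. Of the 37 members 28 were lost, 3 (Klf10, Ier5 and Mafk) were reversed, and 2 (Fosb and Egr2) were undecided.

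Fos, a subunit of AP-1, read -2.65, -2.77 and -3.48 in WT saline and 2.33, 2.56 and 2.44 in WT E2, against -4.02, -4.16 and -3.92 in EAAE saline and -2.82, -4.47 and -3.55 in EAAE E2. The WT groups lay far apart, while the EAAE groups overlapped. Its response was 5.41 ± 0.35 (SE) in WT and 0.42 ± 0.35 in EAAE, and the response difference was -4.98 ± 0.49 (limma, adjusted p 5.16e-05). Within the slide that held 1 array of each group it was -3.75. Nr4a1, an orphan nuclear receptor, stood at 1.85, 2.0 and 1.84 in WT saline and 5.89, 5.81 and 5.98 in WT E2, and at 1.93, 2.29 and 2.18 and 2.02, 1.62 and 1.90 in the EAAE groups. The EAAE arrays overlapped and none came within 3 log2 units of the WT E2 arrays. Arc, a synaptic regulator that is also an early response gene, rose by 6.33 in WT and had an EAAE response of 0.07. Egr1, a zinc finger factor, rose by 2.99 with an EAAE response of 0.21 (95% interval -0.29 to 0.70). Ier2, another early response factor, gave 2.97 and -0.15. Myc, which drives growth genes, rose by 1.30 in WT, with an EAAE response of 0.29 and a response difference of -1.01.

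Dusp1, a phosphatase that switches MAP kinases off, is shown with its promoter because its upstream window holds a cyclic AMP response element. Windows are the 250 bases before the start of the RefSeq transcript, from assembly GRCm38.p6, printed on the gene's strand, with the motif that was found in capitals. The Dusp1 window is chr17:26508473-26508722, minus strand.
Dusp1: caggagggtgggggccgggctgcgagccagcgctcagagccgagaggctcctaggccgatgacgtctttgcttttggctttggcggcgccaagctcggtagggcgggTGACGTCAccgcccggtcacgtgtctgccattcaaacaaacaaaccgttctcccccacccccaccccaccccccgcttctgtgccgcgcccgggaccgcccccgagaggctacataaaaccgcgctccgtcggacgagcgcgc
Dusp1 read -0.15, -0.08 and -0.05 in WT saline, 2.54, 2.46 and 2.49 in WT E2, 0.15, 0.0 and 0.10 in EAAE saline and -0.02, -0.33 and -0.28 in EAAE E2. All EAAE E2 arrays were below all EAAE saline arrays, but that response of -0.30 ± 0.09 did not pass (limma, adjusted p 0.149), while the response difference of -2.88 ± 0.13 did (adjusted p 6.26e-07).

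Known uterine estrogen targets were chosen because earlier work links them to E2, so their WT direction is no independent evidence. Of 33 measured members 24 rose and 5 fell in WT, where 19.5% and 29.9% of all genes did. By limma 0 of the 33 passed in EAAE, with 9 at an unadjusted p under 0.05. With 1.4% of all genes passing in EAAE, that 0 is no result about these targets. Their median response was 1.91 in WT and 0.04 in EAAE. For 26 of the 33 the response was lost. Ramp3, which pairs with a receptor to form a binding site for the vasodilator adrenomedullin, had the smallest p of all named genes. It read 0.96, 1.11 and 1.18 in WT saline, 5.80, 5.86 and 5.74 in WT E2, -1.95, -1.68 and -1.64 in EAAE saline and -1.54, -1.57 and -1.38 in EAAE E2. EAAE E2 arrays were all slightly above EAAE saline arrays and still below every WT array. The response was 4.72 ± 0.10 in WT, 0.26 ± 0.10 in EAAE (adjusted p 0.248), and the difference -4.46 ± 0.15 (adjusted p 1.36e-07). The Ramp3 probe lies at chr11:6629300-6629359 in the build of the files, mm7, for which no annotation was used here.

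Greb1, a cofactor that is a classic estrogen-induced gene, was not well above background on any EAAE array. In WT it read -1.55, -1.28 and -1.01 after saline and 2.46, 2.67 and 2.38 after E2, a rise of 3.78 ± 0.44. Its fitted response difference of -4.48 therefore has no measured EAAE side. Cebpb, a transcription factor needed for stromal differentiation, rose by 3.29 in WT against -0.53 in EAAE. Vegfa, the endothelial growth factor, rose from 1.62, 1.89 and 1.55 to 4.61, 4.80 and 4.61 in WT, and read 1.14, 1.35 and 1.39 and 1.19, 1.42 and 1.03 in the EAAE groups, which overlapped. Wnt4, a ligand of uterine epithelium and stroma, rose by 3.29 in WT against -0.35 in EAAE. Pgr, the progesterone receptor, rose by 1.94 against 0.39, with EAAE E2 arrays at -1.14, -1.09 and -2.18, which span all EAAE saline arrays. Another Pgr probe gave 4.63 in WT and 0.54 in EAAE. Cdkn1a, an inhibitor of cyclin-dependent kinases, rose by 2.98 against -0.28, and Nrip1, a corepressor of nuclear receptors, by 2.62 against -0.23. Ccnd1, cyclin D1, passed in neither genotype, at -0.12 and -0.24.

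Mad2l1, a protein of the spindle checkpoint, belongs both to the estrogen targets and to the genes of replication and mitosis. Its promoter window, chr6:66534971-66535220 on the plus strand, is shown because AGGTCA, the sequence of a single arm of the estrogen response element, occurs in it 2 times.
Mad2l1: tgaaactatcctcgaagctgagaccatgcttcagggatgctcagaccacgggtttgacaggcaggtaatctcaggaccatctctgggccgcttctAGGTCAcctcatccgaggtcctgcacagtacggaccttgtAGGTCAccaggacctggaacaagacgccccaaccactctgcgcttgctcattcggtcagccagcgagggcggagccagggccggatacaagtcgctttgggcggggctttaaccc
Mad2l1 read -1.06, -1.46 and -1.38 in WT saline, 2.92, 2.95 and 2.97 in WT E2, -2.24, -2.69 and -2.19 in EAAE saline and -2.23, -2.26 and -2.57 in EAAE E2. The WT E2 arrays lay close together and far above all 9 others, and the EAAE groups overlapped. The response difference was -4.23 ± 0.22. Of the 36 measured genes of DNA replication and mitosis only 4 rose and 3 fell in WT at 2 h. Their WT median was -0.21, and over all genes 19.5% rose and 29.9% fell. In EAAE, where 1.4% of all genes passed, 0 of these 36 did by limma (4 at an unadjusted p under 0.05). Their median response difference was 0.32, against 0.15 over all genes. The difference was higher for 3 of the 36, among them Mcm6 (0.44) and Mcm7 (0.51) of the replicative helicase, and lower for 4. It was higher for 22.7% and lower for 14.8% of all genes.

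Ribosome biogenesis genes, which build ribosomal subunits in the nucleolus, moved by less per gene but almost as a block. In WT 38 of 42 measured members rose and none fell, with a median of 0.96, where 19.5% of all genes rose and 29.9% fell. In EAAE 1 of 42, Grwd1, rose, and the median was 0.16, with 13 higher and 0 lower at an unadjusted p under 0.05. Over all genes 0.689% rose in EAAE, and 8.24% were higher at that unadjusted p. The response difference was lower for 32 of 42, against 14.8% of all genes, with 31 lost, 1 reduced and 6 undecided. Nolc1, a nucleolar phosphoprotein, read 0.28, 0.30 and 0.30 in WT saline, 2.26, 2.31 and 2.19 in WT E2, 0.10, 0.30 and 0.13 in EAAE saline and 0.29, 0.29 and 0.30 in EAAE E2. Its EAAE E2 arrays were at the top of or level with the EAAE saline range, a response of 0.12 (95% interval -0.04 to 0.28) against 1.96 in WT. Rrs1 and Bysl, both factors of subunit assembly, rose by 2.02 and 1.86 in WT, with EAAE responses of -0.06 and 0.25.

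Heat shock and endoplasmic reticulum stress genes rose in WT for 21 of 30 measured members and fell for 1, with a median of 0.53. In EAAE 0 rose by limma and 1, the chaperone Hspa1a, fell (1 higher and 4 lower at an unadjusted p under 0.05). Of the 30 responses 17 were lost. Over all genes 19.5% rose and 29.9% fell in WT, and 1.4% passed in EAAE. A count of 0 or 1 in EAAE is therefore no result about lists of this size. Atf4, the transcription factor of the integrated stress response, rose by 2.31 in WT and read 0.45, 0.36 and 0.41 in EAAE saline and 0.41, 0.37 and 0.43 in EAAE E2. The EAAE groups overlapped throughout. Chac1, which degrades glutathione and is a target of Atf4, gave 2.86 and 0.07, and the co-chaperone Dnajb1 1.44 and 0.05. Of 27 measured tRNA synthetases and amino acid transporters 16 rose in WT and 0 passed in EAAE by limma (7 at an unadjusted p under 0.05). The large neutral amino acid transporter Slc7a5 rose by 2.68 in WT with an EAAE response of 0.23. Of 26 measured genes of cholesterol and fatty acid synthesis 11 rose and 6 fell in WT and 0 passed in EAAE by limma (3 at an unadjusted p under 0.05). The response difference was lower for 9 and higher for 4 of them, against 14.8% and 22.7% of all genes.

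Beside Arc and Fos, the largest lost rises among named genes measured on all 12 arrays were those of secreted factors, proteases and kallikreins. Klk1b5 and Klk1b3, tissue kallikreins, rose by 7.03 and 5.79 in WT, with EAAE responses of 0.43 and 0.13. Kallikreins of this cluster are near-identical, so which member the probes measured is uncertain. Adamts4, which cleaves proteoglycans, rose by 5.83 against -0.37. Gdf15, a growth factor of the TGF-beta family that is induced by stress, read -1.57, -2.21 and -2.78 in WT saline, 3.78, 4.0 and 3.58 in WT E2, -3.13, -3.25 and -2.95 in EAAE saline and -2.31, -3.25 and -2.76 in EAAE E2. The EAAE groups overlapped, and the response difference was -5.64 ± 0.42. Pgf, placental growth factor, rose by 5.31 against 0.40, Inhbb, the inhibin and activin beta B subunit, by 5.25 against 0.16, and Lrtm2 by 4.84 against 0.44.

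For 20 lost rises the probe was well above background on every WT E2 array and on no array of the other groups, so only a bound on the WT rise can be given. The bound sets the mean of the WT E2 arrays against, in each saline array, the probe's own value or, where higher, that array's dimmest signal still called well above background. Egr4, an early growth response factor, rose at least 68.0-fold in WT, and Klk1b27, which belongs to the kallikrein cluster, at least 24.9-fold. The bounds were 4.4-fold for Mmd2, 2.8-fold for Erfe, the hormone erythroferrone, 2.2-fold for 4932414N04Rik and 2.0-fold for Otop1, a proton channel. All 3 EAAE E2 arrays were at background for these 6 genes, as were the EAAE saline arrays.

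The rises of Hbegf, Errfi1, Socs1 and Ptges were lost too. Hbegf, a ligand of the EGF receptor, read 0.28, 0.28 and 0.16 in WT saline, 3.64, 3.63 and 3.65 in WT E2, 0.74, 0.93 and 1.08 in EAAE saline and 0.71, 0.84 and 0.83 in EAAE E2. The EAAE groups overlapped. Errfi1, which inhibits the EGF receptor, rose by 3.66 in WT against -0.21. Socs1, which shuts off cytokine receptors, rose by 4.08 against -0.28, and Ptges, which makes prostaglandin E2, by 4.01 against -0.34. Among 18 measured glucocorticoid-inducible genes, a list that shares Dusp1 and Errfi1 with others here, the response difference was lower for 7, among them Pdk4 (2.21 and -0.46), and higher for 4. Over all genes it was lower for 14.8% and higher for 22.7%, so the higher count lies near that share.

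**Figure D2:**
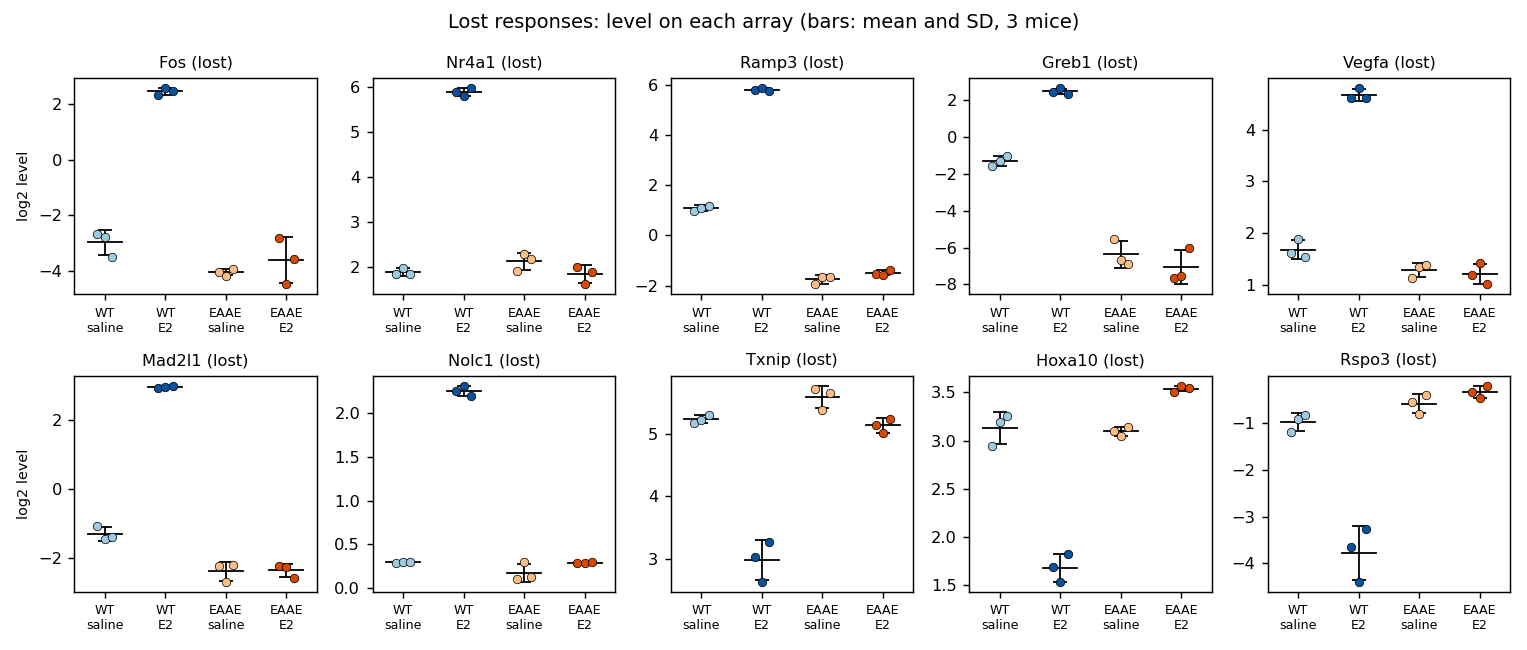
Level of 10 genes with a lost response on each array (y axis, log2 of intensity over its array's 75th percentile) in both saline and both E2 groups. Points are mice and bars are the mean and SD of 3 mice. For Fos, Nr4a1, Ramp3, Vegfa, Mad2l1 and Nolc1 only the WT E2 points stand high, for Txnip, Hoxa10 and Rspo3 only they stand low, and Greb1 lies at background in both EAAE groups.

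Falls that were lost included transcription factors that pattern the reproductive tract. Of 20 measured homeobox and Mullerian patterning genes 12 fell in WT, where 29.9% of all genes did, and none rose. In EAAE 4 rose and 0 fell by limma, where 0.689% and 0.715% of all genes did. At an unadjusted p under 0.05 it was 8 and 0, against 8.24% and 7.84% of all genes. The median was -0.48 in WT and 0.19 in EAAE. The response difference was higher for 10 of 20 and lower for 0 by limma (12 and 0 at an unadjusted p under 0.05), with a median of 0.89 against 0.15 over all genes. Over all genes it was higher for 22.7% and lower for 14.8%, and for 29.2% and 18.2% at that unadjusted p. Hoxa10, a stromal factor needed for implantation, read 2.95, 3.19 and 3.26 in WT saline, 1.69, 1.53 and 1.82 in WT E2, 3.10, 3.05 and 3.14 in EAAE saline and 3.51, 3.56 and 3.55 in EAAE E2. The WT groups moved down and the EAAE groups up, neither with overlap, but the EAAE response of 0.44 ± 0.10 did not pass (adjusted p 0.0607). Hoxa9 fell by 1.90 in WT, with 0.14 in EAAE. Osr1, Osr2, Hand2 and Hoxd9 belong to the reversed class.

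Other lost falls belonged to no single list. Txnip, which inhibits thioredoxin and limits glucose uptake, read 5.17, 5.22 and 5.29 in WT saline and 3.04, 2.64 and 3.28 in WT E2. In EAAE it read 5.71, 5.38 and 5.65 and 5.14, 5.0 and 5.24, so that all E2 arrays were below all saline arrays in both genotypes. The EAAE response of -0.45 ± 0.15 did not pass (adjusted p 0.182), and the response difference was 1.79 ± 0.22. A second Txnip probe gave -2.22 in WT and -0.94 in EAAE, which did pass (adjusted p 0.037), so by that probe the fall was reduced and not lost. Rspo3, a secreted amplifier of Wnt signalling, had a WT response of -2.79 against 0.25, and Flrt3, a guidance and adhesion protein, of -3.31 against 0.26. Ndp, a ligand of frizzled receptors, gave -3.08 and 0.70, Itgb8, an integrin subunit, -3.08 and 0.37, and Meox2, a homeobox factor of mesoderm, -2.80 and 0.64. Ptger2, a receptor of prostaglandin E2, gave -2.55 and 0.14. Nr2f2, a nuclear receptor of uterine stroma, gave -1.57 and 0.36. Bmf, which promotes cell death, gave -3.37 and -0.62. Other Bmf probes gave differences of 2.56, which passed, and 0.57, which did not (limma, adjusted p 0.253). Fam180a gave -2.92 and -0.59, and the transcripts B130024G19Rik and AI854703 -4.05 and -3.46 in WT and 0.38 and -0.56 in EAAE. Mup4, a urinary protein with near-identical copies in the genome, gave -3.05 and 0.79, with 1 WT saline array far above the others (0.42, -2.18 and -2.63).

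Over all genes 19.5% rose and 29.9% fell in WT, 1.4% passed in EAAE, and the difference was higher for 22.7% and lower for 14.8%, so a count of 0 in EAAE is no result about a list of this size. Interferon-stimulated genes fell in WT for 12 of 26 measured members and rose for 2, and 0 passed in EAAE by limma (3 at an unadjusted p under 0.05). The response difference was higher for 10 and lower for 1, with a median of 0.58. Rsad2, an antiviral enzyme, had responses of -2.33 and 0.30. Of 13 measured hedgehog genes 2 rose and 7 fell in WT and 0 passed in EAAE by limma (2 at an unadjusted p under 0.05). Ptch1, the receptor and a target of the pathway, gave -2.67 and -0.22. Gas1 and Boc, which help the receptor bind the ligand, gave -2.04 and -1.61 in WT and -0.50 and 0.05 in EAAE, and the ligand Dhh gave 1.25 and 0.13. Of 40 measured extracellular matrix genes 7 rose and 13 fell in WT and 0 passed in EAAE by limma (6 at an unadjusted p under 0.05), with the response difference higher for 9, such as Lox (1.89), which cross-links collagen, and lower for 6, such as Col6a3 (-1.58). These matrix counts lie near the shares over all genes. Of 14 measured genes of the IGF axis 1 rose and 6 fell in WT and 0 passed in EAAE by limma (5 at an unadjusted p under 0.05), with the response difference higher for Igf2r (1.06), Igfbp3, Igfbp5 (0.92) and Igfbp7 (0.44). For Igfbp7 that call held in 7 of 24 alternatives, which leave out the 2-fold minimum and the fits on each genotype's own arrays.

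Markers of cell types partly share members with these lists. Of stromal markers with a higher difference, Hoxa10 and Hand2 also count in the homeobox list, and Col3a1, Dcn and Lum in the matrix list. Over all genes 29.9% fell in WT, and the response difference was higher for 22.7% and lower for 14.8%. All 8 stromal markers were measured, 7 of them fell in WT and the response difference was higher for 6, with a median of 1.16. Their summed level was 420 to 452 in WT saline, 279 to 325 in WT E2, 327 to 342 in EAAE saline and 363 to 419 in EAAE E2, in units of the array's 75th percentile. The 5 endothelial markers summed to 20.4 to 25.5, 12 to 12.3, 18.7 to 21.0 and 21.3 to 24.7 in the same order. The 5 macrophage markers summed to 9.88 to 14.0, 5.91 to 6.99, 7.11 to 9.24 and 8.66 to 15.2. Epithelial markers, 7 in all, summed to 121 to 138, 106 to 116, 182 to 225 and 176 to 212, and the difference passed for 1 of them, Wnt7a. The 5 smooth muscle markers passed in no comparison by limma (1 response difference at an unadjusted p under 0.05) and summed to 432 to 507, 421 to 515, 366 to 405 and 258 to 433. Stromal, epithelial and smooth muscle markers, those of the labelled tissue, were thus bright in all groups, and no marker of these types was at background on all arrays of a group. Among markers of other sources, the difference was higher for 2 of 4 of oviduct, 2 of 4 of nerve and 1 of 2 of ovary. It was lower for 1 of 5 of granulocytes and mast cells (Kit). It passed for 0 of 7 lymphocyte, 2 erythroid, 4 skeletal muscle and 3 mesothelium markers by limma (0 of each at an unadjusted p under 0.05). Given the shares over all genes, 1 or 2 calls in such short lists are no result about these sources. The part of cell composition in the lost falls was not tested.

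Undecided responses were those that could not be placed. Igf1, a growth factor that the stroma makes in answer to E2, read 1.73, 1.02 and 1.18 in WT saline, 2.55, 2.38 and 2.63 in WT E2, 0.43, 0.41 and 0.06 in EAAE saline and 2.01, 0.92 and 1.17 in EAAE E2. E2 arrays exceeded saline arrays in both genotypes without overlap. The response was 1.21 ± 0.27 in WT and 1.07 ± 0.27 in EAAE, which did not pass (adjusted p 0.0859), and the response difference was -0.15 with a 95% interval of -0.99 to 0.69. A second Igf1 probe gave 2.99 in WT, 1.54 in EAAE and a called difference of -1.46 (adjusted p 0.00273), so the probes place the gene differently. Of the 2855 undecided genes 616 had an EAAE response above 50% of the WT response in the same direction.

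Adipocyte genes were undecided in spite of large values. All 5 adipocyte markers fell in WT, where 29.9% of all genes did, with a median of -3.46 against -0.10 in EAAE. The response difference passed for 0 of 5 by limma (2 at an unadjusted p under 0.05), with a median of 3.33. Adipoq, the hormone adiponectin, read 4.17, 0.96 and 1.88 in WT saline, -1.89, 0.99 and -2.46 in WT E2, 3.60, 3.38 and 1.11 in EAAE saline and 4.14, 1.95 and 1.61 in EAAE E2. Arrays of each group spread over more than 2 log2 units and the WT groups overlapped. In WT E2 1 of the 5 markers was at background on all 3 arrays. The summed level of the 5 markers was 15.8 to 121 in WT saline, 1.17 to 13.2 in WT E2, 21.4 to 114 in EAAE saline and 33.1 to 158 in EAAE E2. The part of fat carried with the uterus in these values was not tested.

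The reduced class held 21 genes, 14 WT rises and 7 falls, in which EAAE uterus changed in the same direction and by less. Adamts1, a protease of the extracellular matrix, read 1.26, 1.42 and 1.45 in WT saline, 4.09, 4.15 and 4.0 in WT E2, 1.64, 1.49 and 1.53 in EAAE saline and 2.95, 2.95 and 2.34 in EAAE E2. Groups were apart in both genotypes. The response was 2.71 ± 0.15 in WT and 1.20 ± 0.15 in EAAE (adjusted p 0.00625), with a difference of -1.51 ± 0.21 (adjusted p 0.000415). Ackr3, a scavenger receptor of the chemokine Cxcl12, rose by 2.61 and 1.38, and its relative Ackr2, which clears other chemokines, by 2.01 and 1.06. Aldh1a2, which makes retinoic acid, rose by 1.95 and 0.55. Tiparp, an ADP-ribosyltransferase, rose by 3.07 and 0.47, and Srm, spermidine synthase, by 1.89 and 0.43. Grpr, the receptor of gastrin-releasing peptide, was measured in WT E2 alone, where it had risen at least 4.8-fold, and both EAAE groups were at background, so its place in this class is not measured. Among the falls, 5930430L01Rik gave -2.31 and -0.64. Hif1a, the hypoxia factor, rose by 0.95 and 0.55. Of 24 alternatives, Adamts1 was reduced in 22, Ackr2 and Ackr3 in 18, 5930430L01Rik in 13, Aldh1a2 in 8 and Tiparp in 7, and the EAAE call was lost in the others. Without single arrays the class held between 2 (without EAAE saline 2) and 33 genes (without EAAE E2 3). It held 3 and 5 without EAAE saline 1 and 3, 6 and 4 without EAAE E2 1 and 2, and 11 to 13 without any 1 WT array.

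The kept class held 58 genes, 23 rises and 35 falls, with a median size of 0.80 in WT and 0.81 in EAAE. For 4 of the 58 the 95% interval of the response difference lay within 50% of the WT response, so equality of the responses is not shown for the others. Ndnf, a secreted factor of neurons and vessels, read -4.30, -3.93 and -4.08 in WT saline, -1.32, -1.30 and -1.13 in WT E2, -3.76, -3.98 and -3.31 in EAAE saline and -1.30, -1.31 and -2.22 in EAAE E2. Groups did not overlap in either genotype. It rose by 2.85 ± 0.25 in WT and 2.07 ± 0.25 in EAAE (adjusted p 0.00587), with a difference of -0.78 (95% interval -1.56 to 0.0). Slc6a2, the noradrenaline transporter, read 0.64, 1.08 and 0.64 in WT saline, 2.34, 2.84 and 2.50 in WT E2, -0.02, 0.48 and 0.33 in EAAE saline and 1.91, 1.72 and 1.76 in EAAE E2. It rose by 1.77 and 1.53, again without overlap, with a difference of -0.24 (95% interval -0.79 to 0.30).

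Several kept rises code for signals between cells. Nrg1, a ligand of ErbB receptors, rose by 1.73 in WT and 2.24 in EAAE with the probe used, but 4 of 4 other probes gave a negative difference and 2 of them passed, at -2.70 and -1.38, so the gene cannot be called kept as a whole. Hrh3, a histamine receptor, rose by 2.07 and 1.39, Cck, the peptide cholecystokinin, by 0.90 and 1.44, and Nog, which traps bone morphogenetic proteins, by 1.13 and 1.0. Dkkl1 gave 1.11 and 1.02, and Cited1, a transcriptional coactivator, 0.81 and 1.29. Adamts9, like Adamts1 a matrix protease, rose by 1.35 and 0.83. Among kept falls, Rab27b, a regulator of secretion, gave -0.95 and -1.10, and Fam169b -1.46 and -0.89. Ndnf and Slc6a2 were kept in 22 of 24 alternatives and Nrg1 and Ch25h in 18, against 13 for Dkkl1, 12 for Hrh3 and Nog, 9 for Cck, 7 for Rab27b and 5 of 23 for Fam169b.

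Ch25h, cholesterol 25-hydroxylase, rose in both genotypes, and its window, chr19:34475149-34475398 on the minus strand, is shown because it holds a cyclic AMP response element.
Ch25h: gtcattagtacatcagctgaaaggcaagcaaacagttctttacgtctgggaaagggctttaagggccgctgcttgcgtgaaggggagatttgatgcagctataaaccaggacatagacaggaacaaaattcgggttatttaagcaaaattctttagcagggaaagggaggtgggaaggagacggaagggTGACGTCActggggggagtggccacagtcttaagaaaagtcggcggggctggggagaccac
It read -0.76, -1.08 and -1.33 in WT saline, 0.19, -0.34 and -0.17 in WT E2, -1.39, -1.77 and -1.90 in EAAE saline and -0.29, 0.10 and -0.73 in EAAE E2. No group overlapped its control. The rise was 0.95 ± 0.23 in WT and 1.38 ± 0.23 in EAAE. Without single arrays the kept class held between 10 genes (without EAAE saline 2) and 79 (without EAAE E2 3). It held 19 and 26 without EAAE saline 1 and 3, 27 and 17 without EAAE E2 1 and 2, 30 and 35 without WT E2 1 and 3, 33 without WT saline 2, and 40 to 43 without any of the other WT arrays.

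In 5 genes the EAAE response was the larger. Dio2, the deiodinase that turns the thyroid prohormone into its active form, is shown with its window, chr12:90739039-90739288 on the minus strand, which holds a cyclic AMP response element.
Dio2: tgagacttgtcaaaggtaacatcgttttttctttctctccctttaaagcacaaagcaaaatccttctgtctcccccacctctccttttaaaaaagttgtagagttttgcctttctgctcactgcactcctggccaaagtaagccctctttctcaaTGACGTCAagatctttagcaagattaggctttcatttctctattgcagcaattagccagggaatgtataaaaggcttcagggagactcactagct
Dio2 read 2.45, 2.87 and 2.63 in WT saline, 4.03, 3.53 and 3.95 in WT E2, -0.25, 0.0 and -0.13 in EAAE saline and 1.77, 1.94 and 1.73 in EAAE E2. It rose in both genotypes without overlap, from a saline level that was lower in EAAE than in WT, and EAAE E2 arrays remained below all WT saline arrays. The rise was 1.19 ± 0.15 in WT and 1.94 ± 0.15 in EAAE, a difference of 0.75 ± 0.21 (adjusted p 0.0185). Gdf6, a bone morphogenetic protein, gave 1.06 and 1.96, but its probe was not well above background on any EAAE array, and the sign of the difference turned with normexp and quantile normalization (-0.25). Slc10a4, a transporter of the bile acid carrier family, rose by 0.37 and 1.24, and its probe was well above background on 1 to 2 arrays only in each group other than EAAE E2. Id3, which blocks helix-loop-helix factors, read 2.91, 3.0 and 2.97 in WT saline, 2.65, 2.65 and 2.59 in WT E2, 3.78, 3.80 and 3.61 in EAAE saline and 2.65, 2.73 and 2.94 in EAAE E2. Its falls of -0.33 and -0.96 brought both genotypes to overlapping levels after E2 from different saline levels. Edn2, endothelin 2, gave -0.56 and -1.28, and its difference passed in 9 of 24 alternatives only.

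The reversed class held 109 genes, of which 46 rose in WT and fell in EAAE and 63 fell in WT and rose in EAAE. The median size was 1.07 in WT and 0.81 in EAAE, and the median size of the response difference was 1.91. Has2, which synthesizes hyaluronan, read -0.98, -0.99 and -1.15 in WT saline, -3.17, -3.51 and -3.18 in WT E2, -1.91, -2.07 and -1.72 in EAAE saline and 1.32, 1.57 and 0.70 in EAAE E2. The WT E2 arrays were the lowest of all and the EAAE E2 arrays the highest, with no overlap between any of these groups. A second Has2 probe gave -2.47 and 2.67. The response was -2.25 ± 0.20 in WT and 3.10 ± 0.20 in EAAE (adjusted p 0.000153), a difference of 5.34 ± 0.28 (adjusted p 1.2e-06). The Has2 probe lies at chr15:56729040-56729099 (mm7).

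Hyaluronan synthase genes differed among themselves. Has1, which makes the same polymer, rose by 5.60 ± 0.35 in WT with an EAAE response of 0.39 ± 0.35, from WT saline arrays at -4.40, -4.39 and -4.14 to WT E2 arrays at 1.03, 1.83 and 0.99, with EAAE saline at -4.64, -4.93 and -5.70 and EAAE E2 at -4.78, -5.27 and -4.05. Its EAAE groups overlapped near background. The Has1 window, chr17:17855189-17855438 on the minus strand, is shown for its AGGTCA, printed in capitals as the reverse complement TGACCT, and for a cyclic AMP response element.
Has1: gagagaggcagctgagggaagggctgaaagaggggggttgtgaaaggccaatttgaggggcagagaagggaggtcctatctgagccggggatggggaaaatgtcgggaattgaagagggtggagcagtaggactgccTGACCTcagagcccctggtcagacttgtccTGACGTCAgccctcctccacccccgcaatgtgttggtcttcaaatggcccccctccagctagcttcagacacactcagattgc
Has3 fell at least 2.8-fold in WT, where its probe was at background after E2, and had an EAAE response of -0.29. Cemip, which degrades hyaluronan, was reversed like Has2, at -1.15 and 1.42. Of the 18 measured hyaluronan and Adamts genes 7 rose and 7 fell in WT and 4 rose and 0 fell in EAAE by limma (8 and 1 at an unadjusted p under 0.05), and the response difference was higher for 7 and lower for 6. Shares over all genes were 19.5% and 29.9% in WT, 0.689% and 0.715% in EAAE, and 22.7% and 14.8% for the difference.

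Osr1, a zinc finger factor of mesenchyme, read 0.08, 0.13 and 0.04 in WT saline, -0.52, -0.38 and -0.38 in WT E2, 0.64, 0.60 and 0.47 in EAAE saline and 2.02, 2.23 and 2.09 in EAAE E2. As for Has2, WT E2 arrays were the lowest and EAAE E2 arrays the highest, and no groups overlapped. The response was -0.51 ± 0.09 in WT and 1.54 ± 0.09 in EAAE (adjusted p 7.43e-05), a difference of 2.05. Its relative Osr2 gave -1.24 and 0.63, Hand2, a stromal factor of the uterus, -1.17 and 0.69, and Hoxd9 -0.45 and 0.59. Hgf, the growth factor of mesenchyme, gave -3.13 and 0.92 and a difference of 4.05 with this probe, and its other probes gave differences of 1.96, 1.57 and 1.21. None of the 3 was reversed, since 2 had EAAE responses of 0.35 and 0.27 that did not pass and the third a WT response of -0.16 that did not pass, so the reversal of Hgf rests on 1 of 4 probes.

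Ptgfr, the receptor of prostaglandin F2 alpha, is shown with its window, chr3:151837529-151837778 on the minus strand, which holds AGGTCA in the reverse complement.
Ptgfr: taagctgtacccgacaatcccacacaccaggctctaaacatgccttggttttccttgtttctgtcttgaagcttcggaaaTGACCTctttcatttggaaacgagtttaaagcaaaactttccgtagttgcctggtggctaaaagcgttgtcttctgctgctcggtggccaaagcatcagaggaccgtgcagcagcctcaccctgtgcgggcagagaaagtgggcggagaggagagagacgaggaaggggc
Ptgfr read -0.86, -0.34 and -0.37 in WT saline, -4.21, -5.27 and -3.98 in WT E2, -0.82, -0.83 and -0.70 in EAAE saline and 0.58, 0.75 and 0.47 in EAAE E2. The saline groups of both genotypes were at like levels and the E2 groups lay far apart on either side, with 2 of 3 WT E2 arrays well above background. The response was -3.97 ± 0.28 in WT and 1.38 ± 0.28 in EAAE, where the adjusted p was 0.0453. A second Ptgfr probe gave -3.52 and 1.26, and its EAAE rise did not pass (adjusted p 0.132). Avpr1a, the vasopressin receptor of smooth muscle, gave -1.28 and 1.20, and Rgs2, which dampens such receptors, -2.49 and 0.78. Cldn1, a tight junction protein, gave -2.59 and 0.93, Hs3st1, which sulfates heparan, -2.20 and 1.19, and the nuclear receptor Rorb -2.54 and 0.88. Neither of the other Rorb probes was reversed, at -0.25 and 0.69 with a difference of 0.94 and at -0.97 and 0.05 with a difference of 1.02. Saxo1 gave -2.70 and 1.70, and Sox4, a transcription factor of progenitor cells, -2.50 and 0.82. Dkk2, a secreted Wnt antagonist, gave -1.77 and 0.76.

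Bhlhe40, a repressor in the circadian clock, is a reversed gene that rose in WT. It read 0.45, 0.36 and 0.56 in WT saline, 2.62, 2.55 and 2.45 in WT E2, 0.01, 0.10 and 0.02 in EAAE saline and -0.67, -0.88 and -0.92 in EAAE E2, with no overlap between any of these groups. It rose by 2.08 ± 0.09 in WT and fell by 0.87 in EAAE (adjusted p 0.00268). The clock gene Per2 gave 1.34 and -0.74. Of the 18 measured clock genes 7 rose and 5 fell in WT, where 19.5% and 29.9% of all genes did. The WT falls lie near that share. In EAAE 2 fell and 0 rose by limma (7 and 0 at an unadjusted p under 0.05), where 0.715% and 0.689% of all genes did. Cry2, a repressor of the clock, gave 1.48 and -0.33 and belongs to the lost rises. Sik1, a kinase that is induced by cyclic AMP, gave 2.91 and -0.78. Ccdc69 gave 2.16 and -1.46, and Tnfrsf12a, the receptor of the cytokine TWEAK, 3.97 and -0.99. Spry4, an inhibitor of receptor tyrosine kinases, had risen at least 13.6-fold in WT, with its probe at background in WT saline and EAAE E2, and its EAAE fall is known only to be at least 1.1-fold. The second probes of Per2 and Ccdc69 had EAAE responses of -0.66 and -0.37 that did not pass. Notch1, a receptor, gave 1.28 and -0.68. In BMP signalling, Id1 gave 0.96 and -0.85 and the inhibitory Smad6 0.59 and -0.75. Klk1b11, of the kallikrein cluster, is uncertain for the reason given above.

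The count of reversed genes depended on single arrays. It was 34, 27 and 46 without EAAE saline 1, 2 and 3, and 49, 39 and 146 without EAAE E2 1, 2 and 3. It was 65 and 72 without WT E2 1 and 3, 69 without WT saline 2, and 84 to 86 without any of the other WT arrays. Has2 and Osr1 were reversed in 24 of 24 alternatives, Bhlhe40 in 23 and Ccdc69 in 22, against 19 for Sik1, 18 for Hgf, Hs3st1 and Dkk2, 11 for Cldn1, 10 for Per2 and Tnfrsf12a, 9 for Rorb, 8 of 23 for Saxo1 and 7 of 23 for Ptgfr.

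**Figure D3:**
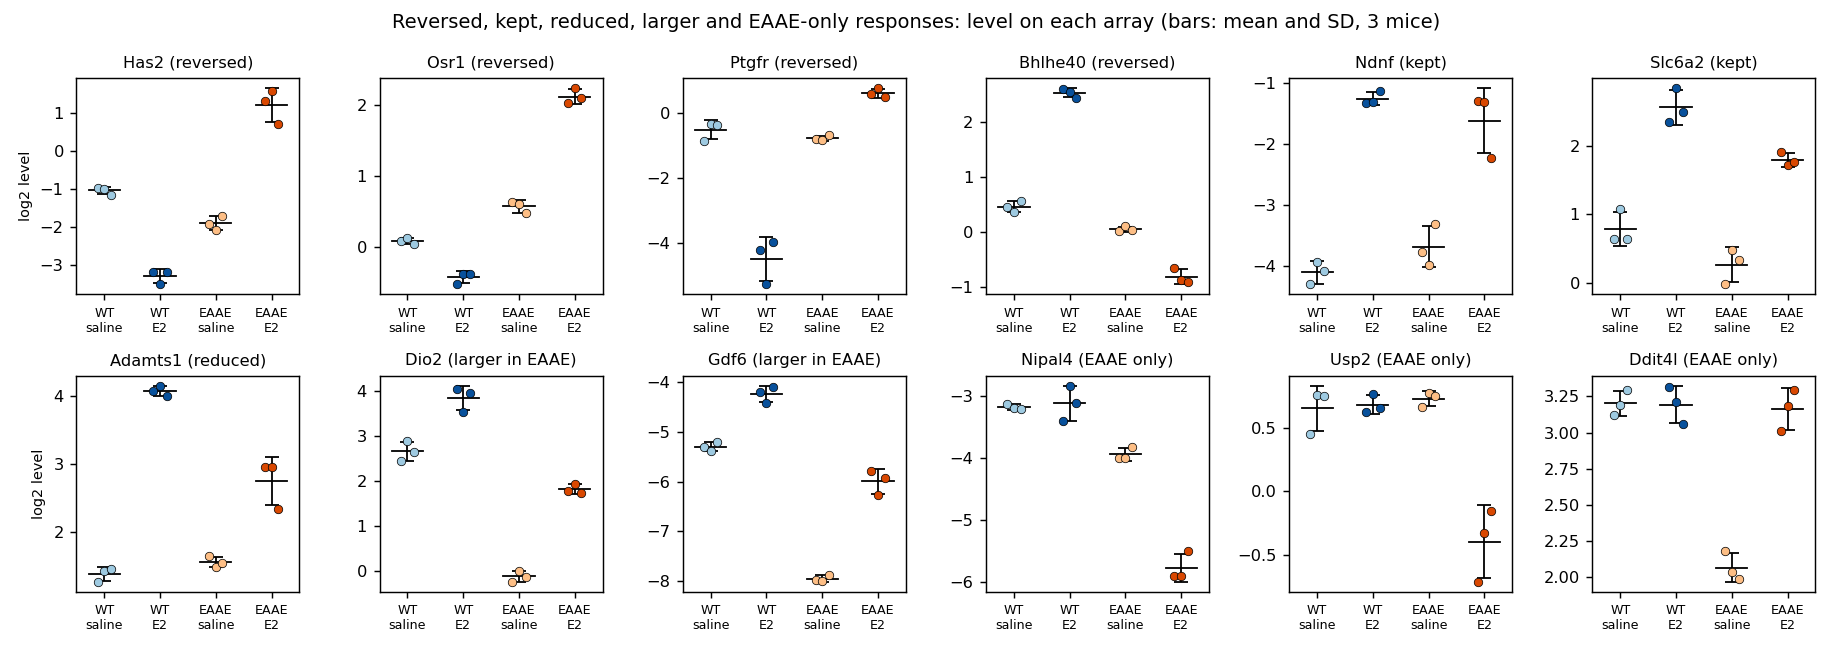
Level of 12 genes of the reversed, kept, reduced, larger and EAAE-only classes on each array (y axis, log2 of intensity over its array's 75th percentile) in both saline and both E2 groups. Points are mice and bars are the mean and SD of 3 mice. Has2, Osr1 and Ptgfr go down in WT and up in EAAE, Ndnf, Slc6a2 and Adamts1 go up in both, and Nipal4, Usp2 and Ddit4l move in EAAE alone.

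EAAE-only responses comprised 26 rises and 34 falls. The transcript A230051N06Rik is among the rises. It read -5.66, -7.62 and -5.59 in WT saline, -5.82, -6.71 and -6.41 in WT E2, -6.77, -7.45 and -7.20 in EAAE saline and -3.32, -1.76 and -3.01 in EAAE E2, and was at background outside EAAE E2 but for 1 WT saline array. It had risen at least 7.7-fold in EAAE. Over the 60 genes the median size was 0.14 in WT and 0.77 in EAAE.

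Nipal4, a putative magnesium transporter of epithelia, read -3.13, -3.20 and -3.22 in WT saline, -3.41, -2.85 and -3.11 in WT E2, -4.01, -4.0 and -3.82 in EAAE saline and -5.90, -5.89 and -5.50 in EAAE E2, where it was no longer well above background. The WT groups overlapped and the EAAE groups did not. Its response was 0.06 in WT, and in EAAE it fell at least 2.9-fold. The fitted difference was -1.88, but another Nipal4 probe gave a difference of -0.23 (adjusted p 0.711 when only probes bright on all 12 arrays were used). Usp2, a ubiquitin protease with circadian transcripts, read 0.66, 0.78 and 0.75 in EAAE saline and -0.72, -0.33 and -0.15 in EAAE E2, against 0.45, 0.76 and 0.75 and 0.62, 0.77 and 0.65 in WT, and its difference was -1.15 ± 0.20.

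Ddit4l, an inhibitor of mTOR signalling, read 3.12, 3.19 and 3.29 in WT saline, 3.32, 3.21 and 3.06 in WT E2, 2.18, 2.04 and 1.99 in EAAE saline and 3.01, 3.19 and 3.29 in EAAE E2. The EAAE saline arrays stood alone, about 1 log2 unit below the other 3 groups, so the EAAE rise of 1.10 ended at the WT level. Of its other probes, 1 gave 1.07 in EAAE and 1 gave a WT fall of -1.08 and an EAAE value of 0.53 that did not pass. Mpo, myeloperoxidase of neutrophils, showed the opposite, with EAAE saline at -1.49, -1.68 and -1.48 above -3.92, -3.21 and -4.18 in WT saline, -3.40, -2.51 and -4.52 in WT E2 and -4.04, -3.48 and -5.08 in EAAE E2. Car2, a carbonic anhydrase, rose by 1.44 in EAAE, and S100g, the calcium-binding calbindin-D9k, by 1.09, with WT values of -0.48 and -0.51 that did not pass. Mt1 and Mt2, metallothioneins that bind zinc, rose by 0.77 and 0.71 in EAAE with -0.20 and -0.06 in WT. Fgr, a kinase of myeloid cells, rose by 1.36, and Pkib, an inhibitor of protein kinase A, by 0.95. A second Pkib probe gave a called WT fall of -0.86 beside an EAAE rise of 1.86. Dusp10, a MAP kinase phosphatase, fell by 1.03, and Irf2bpl also by 1.03. The differences of Wnt2 (0.87) and P2rx5 (-0.90) passed in 17 and 13 of 24 alternatives only, and that of P2rx5 was 0.01 within the slide that held all groups.

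Without single arrays the EAAE-only class held 28, 18 and 28 genes (EAAE saline 1, 2 and 3), 22, 18 and 92 (EAAE E2 1, 2 and 3), 27 and 27 (WT E2 1 and 3) and 32 (WT saline 2), and 42 to 49 without any of the other WT arrays. Nipal4 kept its class in 23 of 24 alternatives and Usp2 and Ddit4l in 22, against 18 for Dusp10 and 12 for Pkib. The class held in 10 for Mpo and P2rx5, 9 for Fgr and Wnt2, 8 for Car2, 6 for Irf2bpl and 4 for S100g.

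EAAE E2 arrays shared a place on the slides, which bears on every EAAE response, passed or not, and so on every response difference and class. All 3 of them sat at position 4, and no other array did, so an effect of that position and an effect of E2 in EAAE cannot be told apart. With position as a linear term, 5828 genes were lost, and 10 were reversed, 7 EAAE only, 2 kept and 0 reduced. Such a linear term cannot separate an effect of position 4 alone. When each genotype's response was instead fitted on its own 6 arrays, an alternative chosen after seeing the data, 7 genes passed in EAAE: Nipal4, Edn2, Osr1, Gdf6, Ptgfr, Has2 and Dio2 (limma, adjusted p of 0.03 to 0.0329). That fit left 6689 genes lost, 3 reversed, 2 EAAE only, 0 kept and 0 reduced.

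**Figure D4:**
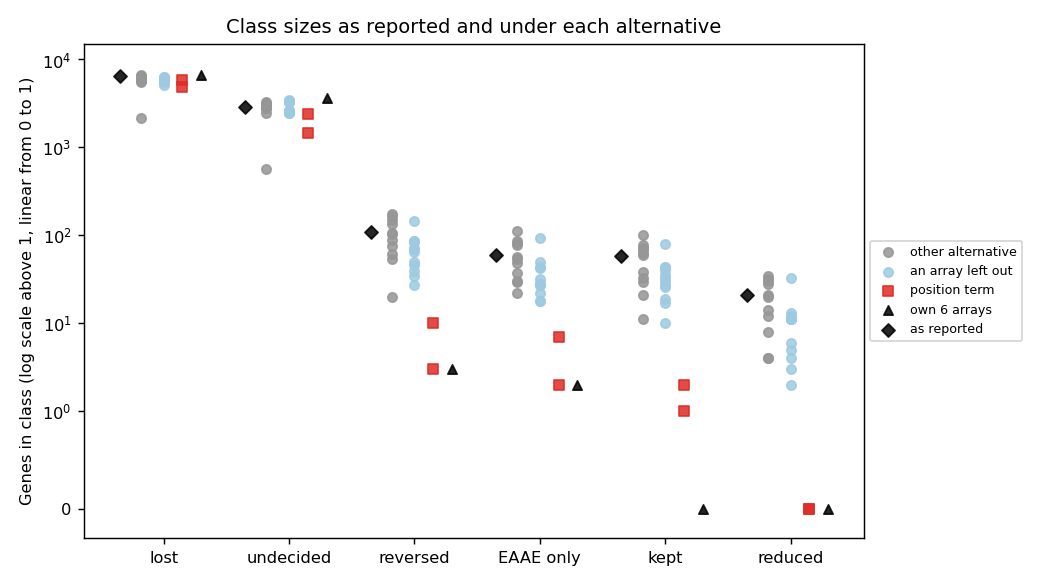
Number of genes in 6 response classes (y axis, log scale above 1) as reported (black diamonds) and under each alternative, with fits without 1 array in blue, fits with a position term as red squares and the fit on each genotype's own 6 arrays as black triangles. The lost class keeps 2154 to 6689 genes, while reversed, EAAE-only, kept and reduced genes drop to 3 or fewer under some alternatives.

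Several lists had members that moved both ways, and their counts are to be read against the shares over all genes. In WT 19.5% of all genes rose and 29.9% fell, and in EAAE 0.689% rose and 0.715% fell. The response difference was higher for 22.7% of them and lower for 14.8%. Of 28 measured vascular and vasoactive genes 12 rose and 8 fell in WT, and the response difference was higher for 7 and lower for 12. In EAAE 4 of the 28 rose and 1 fell by limma (8 and 2 at an unadjusted p under 0.05). Of 41 measured Wnt ligands, receptors and antagonists 8 rose and 15 fell in WT, and 3 rose and 1 fell in EAAE by limma. At an unadjusted p under 0.05 the EAAE counts leaned the other way, with 5 higher and 13 lower. The difference was higher for 10 of the 41, among them the receptor Fzd1 (2.99), and lower for 10, among them the ligand Wnt9a (-1.98). Of 36 measured TGF-beta, activin and BMP genes 12 rose and 7 fell in WT, with the difference higher for 7 and lower for 12, such as Skil (-2.13), which restrains Smad proteins. EGF and FGF ligands, receptors and feedback genes, 27 measured, had 10 rises and 9 falls in WT and 7 differences each way. Cytokine and prostaglandin genes, 29 measured, had 8 and 7, and again 7 each way. Nuclear receptors and cofactors, 26 measured, had 8 rises and 8 falls, and the difference was higher for 5 and lower for 8, with falls and higher differences near the shares over all genes. G1 cyclins and inhibitors, 22 measured, had 4 rises and 9 falls. The difference was higher for 5, such as Cdk6 (0.92), and lower for 4, such as Ccnd2 (-0.66). Other Cdk6 probes gave differences of 0.59 and -0.06, and neither passed (limma, adjusted p 0.388 and 0.929). The median difference of the Wnt, G1 and nuclear receptor lists was 0.01 to 0.03 as scaled here and -0.09 to -0.07 with arrays scaled to their median, so none of the 3 has a settled sign.

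**Figure D5:**
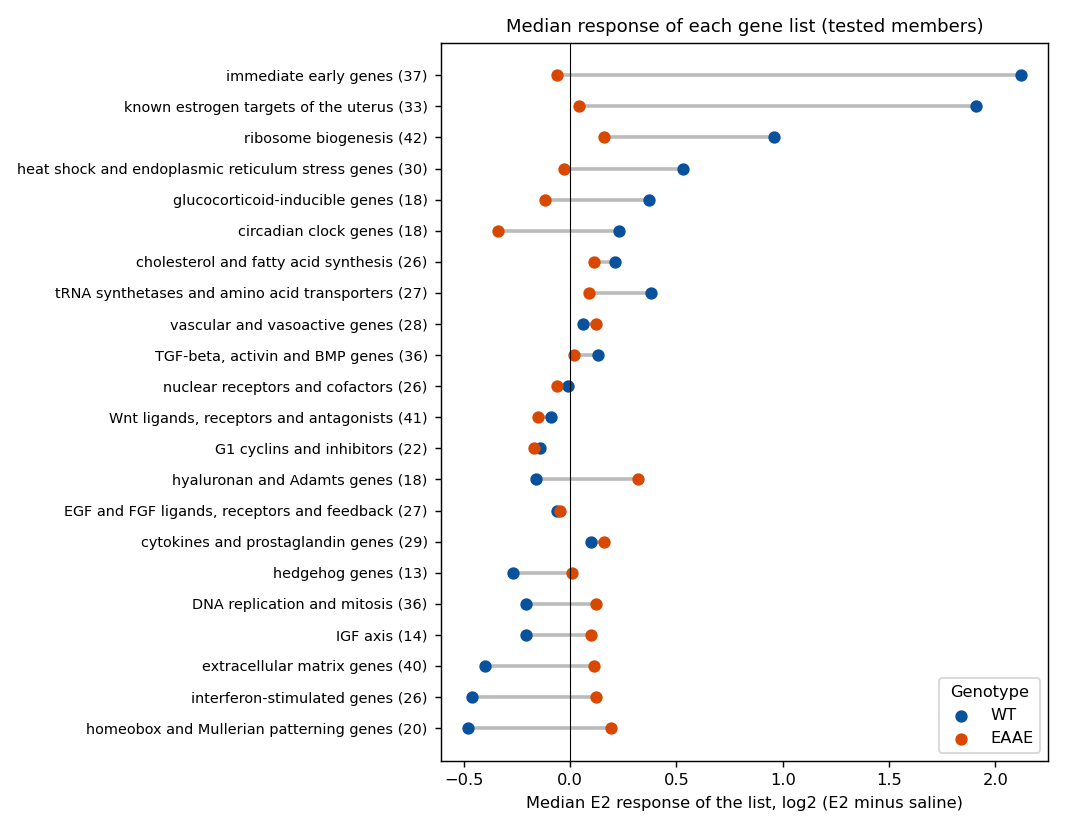
Median E2 response of the measured members of 22 gene lists (x axis, log2) in WT and EAAE, with the number of members measured in parentheses and lists ordered by their median response difference. Immediate early genes (2.12), known estrogen targets (1.91) and ribosome biogenesis genes (0.96) have the highest WT medians, while every EAAE median lies between -0.34 and 0.32.

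Promoters were searched for 4 short sequences on both strands, in the 9712 measured genes with 1 start in the table. The palindromic estrogen response element, searched as GGTCA and TGACC with any 3 bases between them, occurred in 3 of the 9712 windows (0.0309%) and in none of the lost, kept, reversed, reduced or EAAE-only genes. AGGTCA, which shares the letters GGTCA with that palindrome, occurred in 10.8% of all measured windows, in 10.5% of 1387 lost rises, 10.6% of 1927 lost falls, 4 of 55 reversed genes (Krt20, Ptgfr, Saxo1 and Sox4) 3 of 23 kept genes, 4 of 14 reduced genes and 3 of 28 EAAE-only genes. The cyclic AMP response element TGACGTCA occurred in 2.49% of all measured windows, in 61 of 1387 lost rises (4.4%), in 25 of 1927 lost falls (1.3%) and in 2 of 23 kept genes, Ch25h and Kif5c. It occurred in 0 of 55 reversed genes, 0 of 14 reduced genes and 1 of 28 EAAE-only genes, Irf2bpl. The AP-1 site TGAGTCA occurred in 3.2% of all, 2.6% of lost rises and 3.06% of lost falls. These letters are a description of the windows and are no record of binding, and the 6 windows printed were chosen after the values were seen.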

How the data were processed

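Uterine RNA of 12 mice was hybridised to 12 single-colour Agilent arrays. Spots were scanned and extracted by the authors with Agilent Feature Extraction 9.5, per the submitters' processing notes, and probe coordinates are of mm7, per the file headers. The deposited values are linear spot intensity, background-subtracted and detrended within each array and not scaled between arrays, per the file headers. The deposited flags per spot, such as well above background, are a separate column with no scale, per the file headers.

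From these, control and outlier spots were dropped, spots of a probe were averaged, and log2 intensity was set against each array's 75th percentile over probes. A probe was tested if every array of some group had it well above background, as 29017 of 41174 probes did. Genes were named from the files and from RefSeq tables through symbols, synonyms and accessions, 153 of 19301 remain probe IDs, and the brightest probe stood for a gene. limma 3.58.1 in R 4.3.3 (lmFit, eBayes) fitted 4 groups over 12 arrays, and p-values were adjusted by Benjamini-Hochberg at 0.05. The fit was tested on simulated data. Figures were drawn with matplotlib 3.10.9, and tables built with pandas 2.3.3, in Python 3.11.15.

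The gene lists and classes were chosen with earlier results of these data known. Named genes were the 20 fixed by name, the 10 largest lost rises and falls measured on all arrays, 6 lost rises as bounds, the leading reversed (10), kept (10), reduced (6) and EAAE-only (12) responses, and up to 3 members of each list by the smallest p. Of these, 2 are not reported here. Other genes were chosen after their values were seen, namely the 5 larger responses, Ptch1, Fzd1, Has3, A230051N06Rik, Adipoq and further members of the reversed, kept, reduced and EAAE-only classes. The number of arrays limits the precision, and arrays are separate mice per the labels. Alternatives were 2 scalings, normexp (offset 50), 2 filters, another probe, slide and slide position, replicate number, a mean-variance trend, a 2-fold minimum and each array left out. The arrays lay on 3 slides, of which 1 held 1 array of each group. Another held EAAE saline 1 and 3 and no WT saline array. The last held WT saline 2 and 3 and no EAAE saline array. Slide and the genotype of the saline arrays are thus partly confounded, which bears on both responses and on their difference. Correlations of deviations between same-numbered arrays lay between -0.282 and 0.275, and 7 of 12 arrays were closest to an array of their own number. Numbers were not treated as pairs, and a block for them is among the alternatives.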

Additional observations from a re-analysis of the deposited data

Results flagged for a closer look

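For 116 of the 129 named genes the responses of both genotypes differed by the interaction test of limma at an adjusted p under 0.05 over all genes. Over all genes tested the share was 37.5%. Many named genes came from classes that require a called difference, or were picked by the smallest p of the difference. The count of 116 follows largely from that choice and is no evidence of its own. Values are the response difference on the log2 scale, EAAE minus WT.

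Among the 51 named lost rises, EAAE uterus had the lower response, with differences of -6.72 for Egr4, -6.60 for Klk1b5, -6.26 for Arc, -6.20 for Adamts4, -5.66 for Klk1b3, -5.64 for Gdf15, -5.20 for Klk1b27, -5.20 for Has1, -5.09 for Inhbb, -4.98 for Fos, -4.91 for Pgf, -4.48 for Greb1, -4.46 for Ramp3 and -4.40 for Lrtm2. Further members had -4.36 for Socs1, -4.34 for Ptges, -4.28 for Nr4a1, -4.23 for Mad2l1, -4.12 for Mmd2, -3.86 for Errfi1, -3.82 for Cebpb, -3.64 for Wnt4, -3.52 for Hbegf, -3.26 for Cdkn1a, -3.12 for Ier2, -3.07 for Erfe, -3.07 for Vegfa and -3.06 for Otop1. Further members had -2.99 for 4932414N04Rik, -2.88 for Dusp1, -2.86 for Nrip1, -2.79 for Chac1, -2.78 for Egr1, -2.67 for Pdk4, -2.45 for Slc7a5, -2.31 for Atf4, -2.13 for Skil, -2.07 for Rrs1, -1.98 for Wnt9a, -1.84 for Nolc1 and -1.80 for Cry2. Further members had -1.61 for Bysl, -1.58 for Col6a3, -1.55 for Pgr, -1.40 for Slc38a1, -1.38 for Dnajb1, -1.12 for Dhh, -1.01 for Myc, -0.99 for Fdft1, -0.95 for Slc38a2 and -0.66 for Ccnd2.

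Among the 27 named lost falls, EAAE uterus had the higher response, with differences of 4.42 for B130024G19Rik, 3.84 for Mup4, 3.77 for Ndp, 3.58 for Flrt3, 3.46 for Itgb8, 3.44 for Meox2, 3.05 for Rspo3, 2.90 for AI854703, 2.74 for Bmf, 2.69 for Ptger2, 2.63 for Rsad2, 2.34 for Fam180a, 2.05 for Hoxa9 and 1.93 for Nr2f2. Further members had 1.89 for Lox, 1.89 for Hoxa10, 1.79 for Txnip, 1.65 for Boc, 1.54 for Gas1, 1.29 for Mmp11, 1.06 for Igf2r, 0.92 for Igfbp5, 0.92 for Cdk6, 0.91 for Trim25, 0.85 for Ifih1, 0.51 for Mcm7 and 0.44 for Mcm6.

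Reversed responses had differences of 5.35 for Ptgfr, 5.34 for Has2, 4.40 for Saxo1, 4.05 for Hgf, 3.51 for Cldn1, 3.42 for Rorb, 3.39 for Hs3st1, 2.53 for Dkk2, 2.05 for Osr1, -2.08 for Per2, -2.95 for Bhlhe40, -3.62 for Ccdc69, -3.69 for Sik1 and -4.96 for Tnfrsf12a. Reduced responses had -2.60 for Tiparp, -1.51 for Adamts1, -1.39 for Aldh1a2, -1.23 for Ackr3, -0.96 for Ackr2 and 1.66 for 5930430L01Rik. Responses that were larger in EAAE had 0.89 for Gdf6, 0.87 for Slc10a4, 0.75 for Dio2, -0.63 for Id3 and -0.72 for Edn2.

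EAAE-only responses had differences of 1.92 for Car2, 1.60 for S100g, 1.58 for Fgr, 1.26 for Pkib, 1.10 for Ddit4l, 0.87 for Wnt2, -0.90 for P2rx5, -1.04 for Dusp10, -1.06 for Irf2bpl, -1.15 for Usp2, -1.88 for Nipal4 and -2.95 for Mpo. With no call in either genotype, the difference was 0.44 for Igfbp7. Egr4, Klk1b27, Mmd2, Erfe, 4932414N04Rik, Otop1, Greb1, Gdf6 and Nipal4 have a group at background, as given with their values above, so their differences are fitted values and not measured sizes. No explanation of these differences was tested.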

How the results depend on the processing

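Over the alternatives with a fit across all genes, the difference was higher for 3422 to 4296 genes and lower for 2339 to 2924 when 1 array was left out, and 1671 and 1198 with a 2-fold minimum. Lost genes numbered 5101 to 6372 without 1 array and 2154 with a 2-fold minimum. Without 1 array, reduced genes ranged from 2 to 33, kept from 10 to 79, reversed from 27 to 146, EAAE only from 18 to 92, undecided from 2453 to 3454, WT responses from 7694 to 9897 and EAAE responses from 62 to 381. In the order reduced, kept, reversed, EAAE only and all EAAE responses, counts were 8, 29, 54, 29 and 129 with no filter, 34, 101, 173, 111 and 454 with normexp and quantile normalization, 0, 2, 10, 7 and 24 with slide position, and 0, 1, 3, 2 and 7 with slide and position, where undecided genes fell to 1440 and WT responses to 6274. With a 2-fold minimum they were 4, 11, 20, 22 and 76, with 570 undecided and 2759 WT responses. On each genotype's own 6 arrays, chosen after seeing the data, they were 0, 0, 3, 2 and 7. With slide as a fixed block, reduced, kept, EAAE-only and all EAAE responses were 4, 21, 37 and 149. Array-median scaling left 38 kept, and a mean-variance trend gave 32 reduced and 166 reversed.

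The replicate block left 4307 higher and 2768 lower differences and 6358 lost genes, against 12 reduced, 33 kept, 61 reversed, 30 EAAE-only and 144 EAAE responses, with 7 of 12 arrays closest to an array of their own number. Of the 129 named genes, 127 kept their side of the threshold under that block, 125 with slide as a fixed block and 124 with slide and position. Edn2 and Igfbp7 lost their call in most alternatives. The sign turned when the probe with the largest interquartile range stood for the gene for Cdk6 at -0.059, Ifih1 at -0.001 and Trim25 at -0.57. Gdf6 was at -0.25 with normexp and quantile normalization. With the probe of the largest interquartile range Igf1 gained a call, at -1.46. Within the slide that held 1 array of each group P2rx5 was at 0.011. Of the 129 named genes 54 were scored there as the same, 74 as moved and 1 as reversed. Ackr2 was at -0.23 within that slide, against -0.96 over all arrays, and Hrh3 at 0.01 against -0.68. The cause of these changes was not tested. Within the class definitions, 3416 lost genes kept their class under the 24 alternative fits other than the filter to probes bright on all 12 arrays, as did the reversed genes Avpr1a, Has2 and Osr1, the kept AK087779 and the EAAE-only Nipal4. With the 2-fold minimum also required 1690 of these lost genes remained and Osr1 dropped out, and with each genotype's own 6 arrays required Avpr1a and AK087779 dropped out. With 3 arrays a group, signal over background limits the values of dim probes, which are given as bounds.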
